A study of Mus musculus with 12 samples.

Results

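Collagen VI and the fibril-associated collagens are collagens that surround and connect the thick collagen fibers of tissue. The 9 genes described here are Col6a1, Col6a2, Col6a3, Col8a1, Col12a1, Col14a1, Col15a1, Col16a1 and Col18a1. They were found by their gene names in the expression table, and all 9 are among its 56980 genes. The label covers more than 1 kind of collagen. Col12a1, Col14a1 and Col16a1 belong to the fibril-associated collagens in the strict sense (FACITs). Col8a1 forms networks, and Col15a1 and Col18a1 are multiplexins, collagens of basement membrane zones.

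RNA was sequenced from lung tissue of male C57BL/6 mice, 6 to 8 weeks old, in 3 groups of 4 libraries. Control mice received distilled water in place of granules, and the protocol text does not say what, if anything, was put into their trachea. Model mice received bleomycin, a drug that injures the lung and is used to produce fibrosis, at 5 mg/kg, once, into the trachea, and distilled water. HBG mice received the same bleomycin and Huashibaidu granules, an herbal preparation, at 7 g/kg by mouth; their library titles carry the abbreviation HSBD. The tissue was taken on day 28. On the granules the labels conflict: in the series text they precede bleomycin by a week and last to day 28, while in the sample text they begin on day 7 and run for 14 days. The sample text also mentions several granule doses, and the titles do not say which was sequenced. Bleomycin injury is 1 model of fibrosis in young animals of 1 sex, and no strain or genotype other than C57BL/6 is named. Nothing in the labels states that each library is a separate animal, so every p-value below measures the spread among libraries, whatever its source.

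Collagen VI is assembled from 3 different chains, encoded by Col6a1, Col6a2 and Col6a3 in the usual form, into beaded filaments that link cells and basement membranes to the interstitial matrix. FACIT collagens lie along the surface of fibrils of type I and type III collagen and project domains that bind other matrix proteins. Multiplexins carry sugar chains and release C-terminal fragments, of which endostatin from Col18a1 is the best known. In the lung these collagens are made mainly by fibroblasts, with Col15a1 and Col18a1 also made by endothelial and epithelial cells.

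All collagens share a triple helix in which glycine recurs in each set of 3 residues, and the genes differ in how much of their protein is helix. To show the shared feature, 1 stretch of 90 bases of coding sequence, 5′ to 3′, is given for a gene of each kind, with the glycine codons of the repeat in capitals. The stretches come from the GENCODE M21 transcripts (GRCm38).
Col6a1: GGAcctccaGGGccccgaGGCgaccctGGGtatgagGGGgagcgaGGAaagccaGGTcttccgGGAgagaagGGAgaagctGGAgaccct
Col8a1: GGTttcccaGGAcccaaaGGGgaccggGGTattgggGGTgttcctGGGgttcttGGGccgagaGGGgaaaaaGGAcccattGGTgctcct
Col12a1: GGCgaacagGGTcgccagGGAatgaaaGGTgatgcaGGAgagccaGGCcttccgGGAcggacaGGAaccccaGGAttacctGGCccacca
Col16a1: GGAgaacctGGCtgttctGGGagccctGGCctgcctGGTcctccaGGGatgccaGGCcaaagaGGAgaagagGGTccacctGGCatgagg
Col18a1: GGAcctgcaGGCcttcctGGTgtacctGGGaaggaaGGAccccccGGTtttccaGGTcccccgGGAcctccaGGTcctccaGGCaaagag

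Each stretch holds 10 glycine codons of the repeat, and the codons between them differ from gene to gene. In Col8a1 a codon between them also encodes glycine. Counting runs of at least 10 such triplets, the repeat covers 54.9% of the codons of Col16a1, in 14 runs, and 51.2% of those of Col8a1. It covers 29.3% in Col6a1, 31.9% in Col6a2 and 10.1% in the longer Col6a3. The share is lowest in Col12a1, at 7.635%, and is 13.0% in Col14a1, whose proteins are mostly made of other domains. The Pfam domains listed in the deposited table give the same picture. The collagen domain is listed for 9 of the 9 genes and the von Willebrand factor A domain, a binding module, for 5, the 3 collagen VI chains with Col12a1 and Col14a1. The endostatin domain is listed for 2, Col15a1 and Col18a1, and the C1q domain, which holds network collagens together, for 1, Col8a1. The repeat is rich in G and C in each gene, from 62.1% to 65.2%, while whole transcripts range from 46.8% in Col8a1 to 61.4% in Col16a1.

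Col6a1 and Col6a2 are neighbouring genes on chromosome 10, where Col18a1 also lies. Col6a3 is on chromosome 1, Col8a1 on 16, Col12a1 on 9, Col14a1 on 15, and Col15a1, beside the TGF-beta receptor gene Tgfbr1, on 4 with Col16a1. RefSeq promoter sequences (GRCm38.p6) were matched for 7 of the 9 genes, without Col12a1 and Col14a1. The 120 bases directly before the first annotated exon are shown for the 3 collagen VI genes, whose levels moved together (below), and for Col8a1, whose level moved apart from them. Each is written 5′ to 3′ on the gene's strand. Capitals mark the GC box, GGGCGG, read here on the other strand.
Col6a1, chr10:76726169-76726288, minus strand: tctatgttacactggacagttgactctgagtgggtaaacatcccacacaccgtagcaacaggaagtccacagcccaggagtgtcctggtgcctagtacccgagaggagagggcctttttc
Col6a2, chr10:76623631-76623750, minus strand: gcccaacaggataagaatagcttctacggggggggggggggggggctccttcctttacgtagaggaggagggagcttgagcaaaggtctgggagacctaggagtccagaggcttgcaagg
Col6a3, chr1:90843972-90844091, minus strand: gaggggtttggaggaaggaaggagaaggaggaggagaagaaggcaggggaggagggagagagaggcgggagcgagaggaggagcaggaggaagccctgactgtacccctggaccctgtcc
Col8a1, chr16:57754738-57754857, minus strand: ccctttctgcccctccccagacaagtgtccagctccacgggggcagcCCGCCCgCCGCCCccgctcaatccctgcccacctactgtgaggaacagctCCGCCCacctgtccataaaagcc

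The motifs searched, on both strands, were the GC box GGGCGG, the AP-1 site TGANTCA and the TATA box TATAAA. Of 32851 windows of this length directly before RefSeq starts, 26.5% hold the first, 3.41% the second and 6.34% the third. The windows of the collagen genes were placed by another rule, before the first start in RefSeq or GENCODE M21. These shares are therefore only a rough background. None of the 3 motifs was found in the windows of Col6a1, Col6a2 or Col6a3, nor in those of Col15a1 and Col16a1. The lack of a motif was thus not particular to the collagen VI genes. The windows of Col8a1 and Col18a1 hold 3 GC boxes each. These are matches of letters and were not tested for binding.

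The 12 libraries held 17979863 to 27150787 counts, and the 9 genes were read 190 to 6228 times per library, well above the floor of 3 counts. Lung identity was clear in each library. Sftpc, the surfactant protein of type II alveolar cells, was at 7736 to 18928 CPM (counts scaled to library totals adjusted by TMM factors). Ager, a marker of type I alveolar cells, was at 1514 to 2415 CPM. Control 4, Model 2 and HBG 3 differed from the rest of their groups in the level of Cdkn1a. Cdkn1a, a cell cycle inhibitor chosen after its values were seen, was at 55.4 CPM in Control 4, 174 in Model 2 and 73.5 in HBG 3, and at 477 to 751 CPM in the other 9. Across 17827 genes, the deviations of Control 4 and Model 2 from their group means had a correlation of 0.457, those of Model 2 and HBG 3 of 0.532 and those of Control 4 and HBG 3 of 0.373. Such values were not particular to these libraries: HBG 4 and Model 4 had 0.481, and HBG 1 and Control 2 had 0.398. In mean correlation with its own group, Control 4 (0.974) was not below Control 2 (0.972). Model 2 (0.957) and HBG 3 (0.940), however, were the lowest of their groups by this measure. Because of the Cdkn1a level, the fold changes of the 9 genes are also given without Control 4, Model 2 and HBG 3.

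Compared per length of transcript, the collagen VI chains were the most abundant of the 9 in each group. Col6a1 had 45.8 ± 3.26 CPM per kilobase in Control, 69.2 ± 10.2 in Model and 56.3 ± 11.6 in HBG (SD, n = 4). Col6a2 followed with 36.3 ± 1.42, 50.7 ± 8.25 and 40.1 ± 11.4 CPM per kilobase, and Col6a3 with 11.2 ± 0.770, 15.3 ± 2.79 and 11.7 ± 3.48. Together the 3 chains made up 76.7% ± 1.55 of the summed per-length level of the 9 genes in Control, 77.3% ± 2.41 in Model and 76.8% ± 0.711 in HBG. This share moved by less than the spread between libraries, so the mix of collagen VI and the other 6 genes was close in the 3 groups.

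Below them came Col18a1, Col16a1 and Col14a1, in that order in each group. In Control these were at 7.64 ± 0.901, 6.37 ± 0.442 and 4.84 ± 0.698 CPM per kilobase. Col15a1, Col8a1 and Col12a1 were lowest and changed places between groups, at 3.52 ± 1.11, 3.29 ± 0.630 and 2.58 ± 0.788 in Control. In Control, neighbours in this order did not overlap down to Col14a1, while Col14a1 and Col15a1, Col15a1 and Col8a1, and Col8a1 and Col12a1 did. In Model and HBG only Col6a2 and Col6a3 stood apart from each other without overlap among neighbours in the order, although Col6a1 exceeded Col6a2 in 4 of 4 libraries of each group.

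The first comparison, Model against Control, asks what bleomycin did to these transcripts. The mean was higher in Model for 9 of the 9 genes, with a median of 1.44-fold, against 1.01-fold over all genes tested, of which 51.5% had a higher mean. The largest mean difference was that of Col12a1, at 2.0-fold, and the smallest that of Col16a1, at 1.14-fold. No member passed the edgeR test adjusted over all genes (adjusted p from 0.158 to 0.678), in a comparison in which edgeR called 62 of 17827 genes, or 0.348%. At an unadjusted p under 0.05 stood 5 of the 9 (Col6a1, Col6a2, Col6a3, Col12a1 and Col18a1) and 2084 of all genes. DESeq2 called 1 member, among 444 genes or 2.49% of those tested, and limma-voom with sample quality weights called 3, among 1079 genes or 6.05%, as given with each gene. The weights did not count the libraries equally. They were 1.37, 0.330, 2.96 and 0.533 for Model 1 to 4, and 0.962 to 2.08 in Control. The Model libraries lay wholly above the Control libraries for 2 members, Col6a1 and Col6a2, and 8.71% of all genes had groups that did not overlap in either direction. In bulk tissue, more cells of a type and more RNA per cell cannot be told apart.

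**Figure D1:**
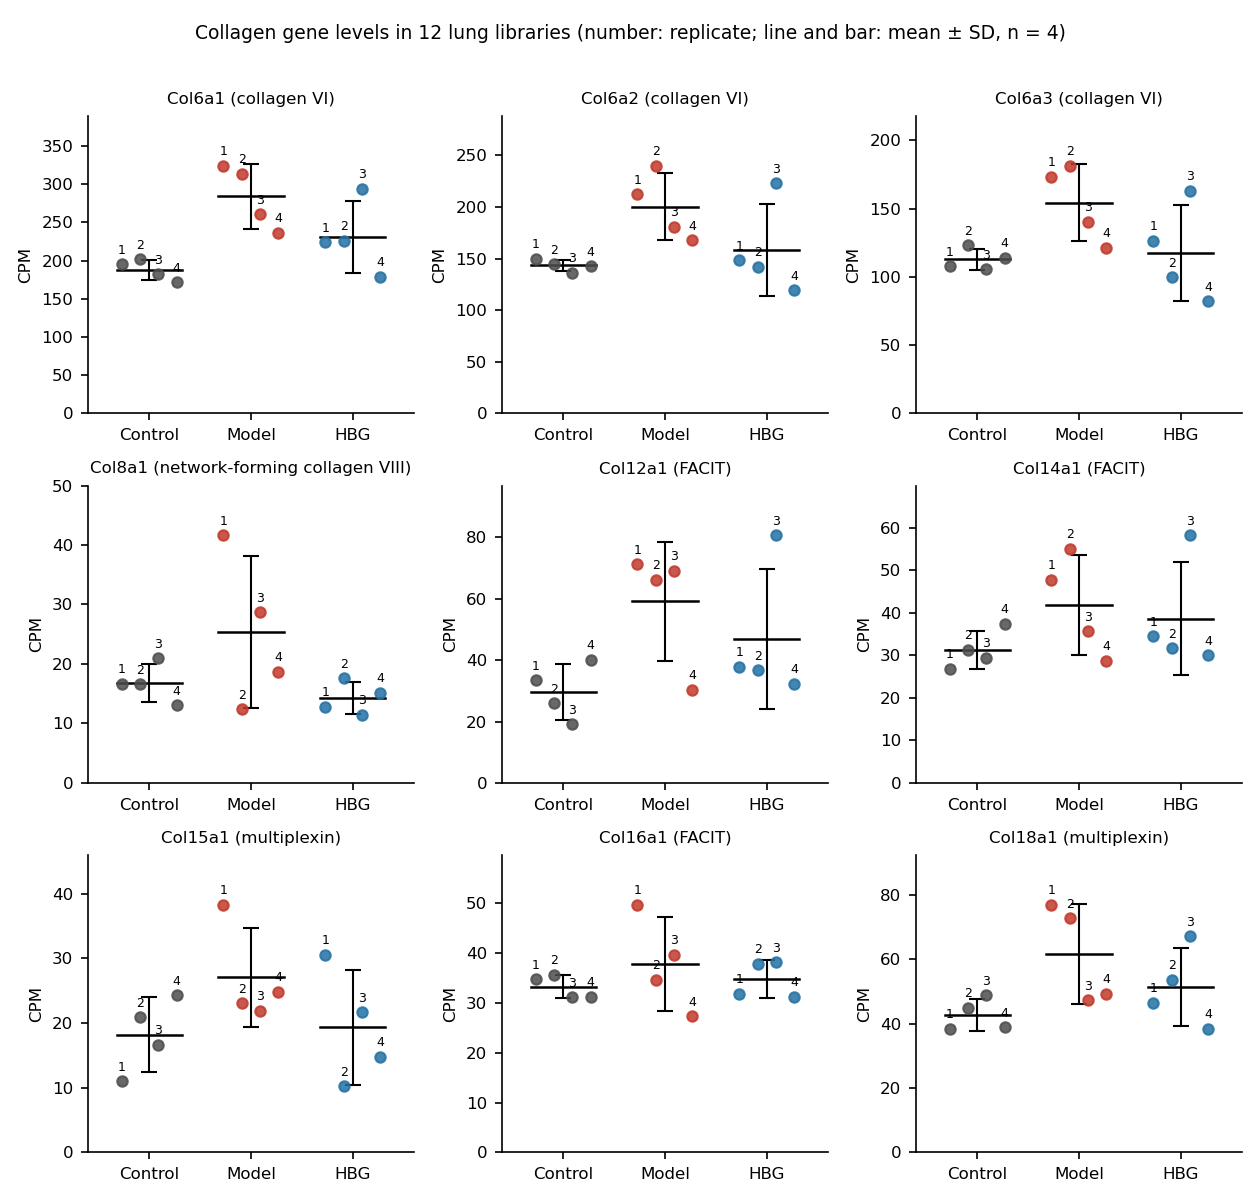
Level of each of the 9 collagen genes in CPM (vertical axis, from 0) in the 4 Control, 4 Model and 4 HBG libraries (points, with the replicate number), with the mean and SD of each group as lines and bars. The Model points of Col6a1, 237 to 324 CPM, lie above all Control points, as do those of Col6a2, and HBG 3 is the highest HBG point for 7 genes.

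Col6a1 encodes the alpha 1 chain of collagen VI (ENSMUSG00000001119). Its level was 195, 202, 182 and 172 CPM in Control 1 to 4 and 324, 314, 261 and 237 CPM in Model 1 to 4. The lowest Model library, Model 4, was above the highest Control library, Control 2. The means were 284 ± 41.9 and 188 ± 13.4 CPM (SD, n = 4), and the log2 fold change was 0.60 ± 0.15 (SE; adjusted p = 0.158 by edgeR). The adjusted p was 0.0178 with DESeq2 and 0.0184 with limma-voom and sample quality weights. By edgeR it was 0.0910 without Model 4 and reached 0.420 without Control 3.

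Col6a2 encodes the alpha 2 chain (ENSMUSG00000020241). The Control libraries were close together, at 150.1, 145, 137 and 142 CPM, and the Model libraries were at 213, 240.2, 181 and 168 CPM. Again Model 4 was the lowest of its group and still above every Control library. The log2 fold change was 0.48 ± 0.17 (SE, edgeR adjusted p = 0.321), and 0.0455 was the adjusted p by limma-voom with weights.

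Col6a3 encodes the largest chain (ENSMUSG00000048126), from which the fragment endotrophin is cut. It was at 108, 123, 106 and 114 CPM in Control and at 173, 182, 140.3 and 121 CPM in Model. The groups overlapped only through Model 4, which was below Control 2. The log2 fold change was 0.45 ± 0.19 (SE, edgeR adjusted p = 0.392). For the 3 chains alike, the spread between libraries was wider in Model than in Control: the coefficient of variation was 7.13%, 3.90% and 6.90% in Control for Col6a1, Col6a2 and Col6a3, and 14.8%, 16.3% and 18.3% in Model.

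Among the FACITs, Col12a1 encodes a collagen of the fibril surface that is known from tissues under mechanical load. Its values were 33.4, 26.0, 19.2 and 40.1 CPM in Control and 71.3, 66.2, 69.1 and 30.3 CPM in Model. The first 3 Model libraries were well above Control, and Model 4 lay inside the Control range. The log2 fold change was 1.0 ± 0.35 (SE, edgeR adjusted p = 0.302). With limma-voom and weights, where Model 2 and Model 4 counted least in Model, it was 1.26 (adjusted p = 0.0170). By edgeR without Model 4 it was 1.22 (adjusted p = 0.122). Col14a1, which encodes a close relative that regulates fibril growth, was at 26.9, 31.3, 29.4 and 37.5 CPM in Control and 47.8, 55.1, 35.7 and 28.7 CPM in Model. Only Model 1 and Model 2 exceeded Control 4, and the log2 fold change was 0.42 ± 0.24 (SE, edgeR adjusted p = 0.525). Col16a1, the third FACIT, had the smallest difference, with 31.1 to 35.6 CPM in Control and 49.7, 34.6, 39.6 and 27.3 CPM in Model 1 to 4. Model 4 was below every Control library here, and the log2 fold change was 0.19 ± 0.16 (SE, edgeR adjusted p = 0.678). Without Model 1 it was 0.031.

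The multiplexins differed from each other in how their libraries were spread. Col18a1, the source of endostatin, was at 38.4, 44.9, 48.9 and 38.9 CPM in Control and 77.0, 72.7, 47.2 and 49.3 CPM in Model. Model 1 and Model 2 were high, Model 4 was just above Control 3 and Model 3 just below it. The log2 fold change was 0.52 ± 0.20 (SE, edgeR adjusted p = 0.335). Col15a1, whose product anchors cells and vessels to the matrix beneath, was at 11, 20.9, 16.6 and 24.3 CPM in Control and 38.3, 23.1, 21.9 and 24.9 CPM in Model. Model 1 stood well above the rest and Model 4 was the only other Model library above Control 4. The log2 fold change was 0.57 ± 0.33 (SE, edgeR adjusted p = 0.530) and 0.35 without Model 1.

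Col8a1 encodes a short network-forming chain that is made by vessel wall and mesenchymal cells. It was at 16.7, 16.6, 20.9 and 13.1 CPM in Control and 41.7, 12.4, 28.7 and 18.7 CPM in Model. Model 2, high for the collagen VI chains, was here below all Control libraries, and Model 1 was far above them. The coefficient of variation in Model was 50.3%. The log2 fold change was 0.59 ± 0.31 (SE, edgeR adjusted p = 0.498). Without Model 1 it was 0.24 and without Model 2 0.82.

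With Control 4, Model 2 and HBG 3 left out, an alternative chosen after seeing the data, the means remained higher in Model for the 9 genes, with log2 fold changes of 0.49, 0.37 and 0.36 for Col6a1, Col6a2 and Col6a3, of 1.11, 0.34 and 0.19 for Col12a1, Col14a1 and Col16a1, and of 0.38, 0.79 and 0.70 for Col18a1, Col15a1 and Col8a1. None passed the edgeR test then either (adjusted p = 0.282 for Col6a1 and 0.280 for Col12a1).

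**Figure D2:**
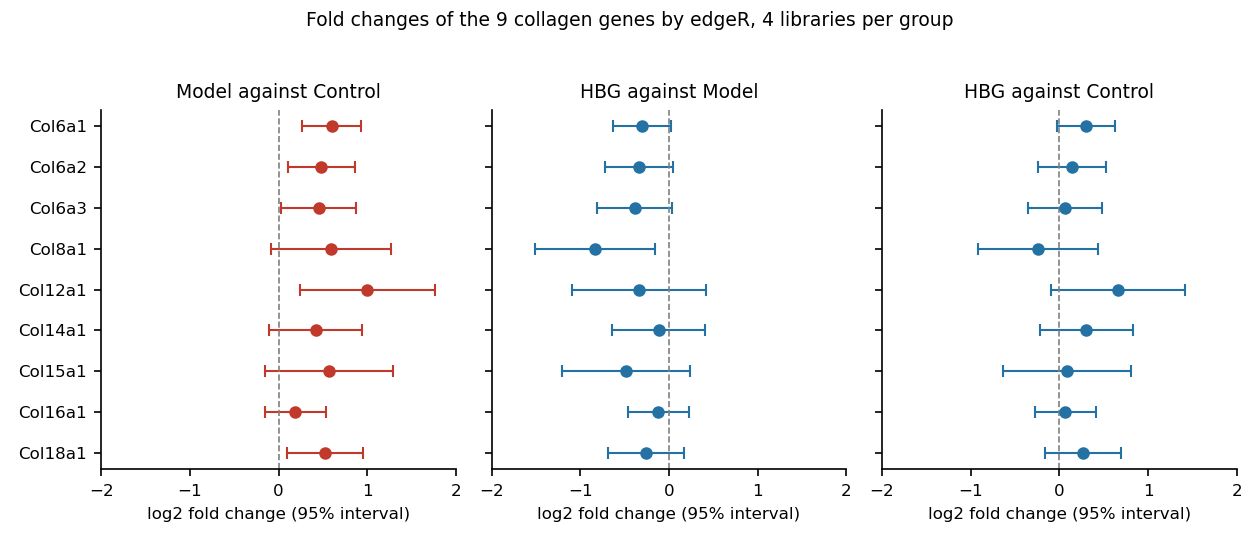
Log2 fold change of each collagen gene by edgeR (horizontal axis; points) with its 95% interval (bars) in the 3 comparisons of 4 libraries with 4. In Model against Control the points run from 0.19 for Col16a1 to 1.0 for Col12a1, in HBG against Model from -0.83 for Col8a1 to -0.11 for Col14a1, and in HBG against Control they lie on both sides of 0.

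The second comparison, HBG against Model, asks what differed when granules were added to bleomycin. The mean was lower in HBG for 9 of the 9 genes, with a median of 0.792-fold, against 1.0004-fold over all genes, of which 50.1% had a higher mean in HBG. No member passed (edgeR adjusted p = 0.9999 for each), and neither did any other gene: edgeR called 0 of 17827, or 0%, with 433 at an unadjusted p under 0.05, while DESeq2 called 4 genes (0.0224%) and limma-voom with weights 0 (0%), none of them a member. Only Col8a1 had an unadjusted p under 0.05. The groups overlapped for each of the 9 genes, and 1.13% of all genes had groups that did not. Since this comparison and the first use the same 4 Model libraries, a high Model mean raises the one difference and lowers the other, and their opposite signs are not separate evidence.

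The HBG libraries of Col6a1 were at 224, 226, 294 and 179 CPM. HBG 3 lay among the Model libraries and the other 3 below all of them. The mean was 231 ± 47.6 CPM (SD, n = 4), and the log2 fold change against Model was -0.30 ± 0.15 (SE), with a 95% interval from -0.63 to 0.03. Col6a2 was at 148, 142, 223 and 119.6 CPM in HBG and Col6a3 at 126, 99.8, 163 and 82.1 CPM. For both chains HBG 3 was the highest and HBG 4 the lowest, as for Col6a1. Their log2 fold changes were -0.34 ± 0.17 and -0.39 ± 0.19 (SE), with 95% intervals from -0.72 to 0.04 and from -0.81 to 0.03.

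For the FACITs the difference from Model was small beside the spread. Col12a1 was at 37.8, 36.7, 80.8 and 32.3 CPM in HBG and Col14a1 at 34.5, 31.7, 58.3 and 30.1 CPM. In both, HBG 3 exceeded every Model library, while the other 3 libraries lay within the Control range. The log2 fold changes were -0.34 ± 0.34 for Col12a1 (95% interval from -1.09 to 0.42) and -0.11 ± 0.24 for Col14a1 (-0.64 to 0.41). Without HBG 3 the value of Col12a1 was -0.74, and without Model 2 that of Col14a1 turned to 0.048. Col16a1 was at 31.8, 37.8, 38.1 and 31.2 CPM, all inside the Model range. Its log2 fold change was -0.12 ± 0.16 (95% interval from -0.47 to 0.22), and 0.037 without Model 1.

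Of the multiplexins, Col18a1 was at 46.5, 53.6, 67.2 and 38.5 CPM in HBG and Col15a1 at 30.6, 10.3, 21.6 and 14.8 CPM. The highest library was HBG 3 for Col18a1 and HBG 1 for Col15a1. The log2 fold changes against Model were -0.26 ± 0.20 (95% interval from -0.69 to 0.17) and -0.48 ± 0.33 (-1.21 to 0.24). Col8a1 had the largest mean difference of the 9, with 12.8, 17.6, 11.4 and 15.1 CPM in HBG. All Model libraries but Model 2 were above every HBG library. Its mean was 14.3 ± 2.72 CPM in HBG and 25.4 ± 12.8 in Model, a log2 fold change of -0.83 ± 0.31 (SE; 95% interval from -1.51 to -0.15). Without Model 1 it was -0.48 and without Model 2 -1.06.

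Without Control 4, Model 2 and HBG 3 the 9 log2 fold changes of HBG against Model were all below 0. They were -0.38, -0.45 and -0.49 for Col6a1, Col6a2 and Col6a3, -0.67, -0.21 and -0.20 for Col12a1, Col14a1 and Col16a1, and -0.32, -0.60 and -0.96 for Col18a1, Col15a1 and Col8a1. None passed the edgeR test (adjusted p = 0.968 for each).

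The third comparison, HBG against Control, sets the mice given bleomycin and granules beside the Control mice. The mean was higher in HBG for 8 of the 9 genes and lower for Col8a1, with a median of 1.10-fold, against 1.004-fold over all genes, of which 51% had a higher mean. No member passed (edgeR adjusted p from 0.622 to 0.965), where edgeR called 27 genes, or 0.151%, and 1470 had an unadjusted p under 0.05. The groups overlapped for each of the 9 genes and did not for 6.33% of all genes. Log2 fold changes were 0.30 ± 0.15 for Col6a1, 0.14 ± 0.17 for Col6a2 and 0.06 ± 0.19 for Col6a3 (SE). Those of Col12a1, Col14a1 and Col16a1 were 0.66 ± 0.35, 0.31 ± 0.24 and 0.07 ± 0.16. Col18a1, Col15a1 and Col8a1 had 0.27 ± 0.20, 0.09 ± 0.33 and -0.24 ± 0.31.

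Several of these small values rest on 1 library. Without HBG 3, Col6a2 was at -0.070 and Col6a3 at -0.13, and Col12a1 fell from 0.66 to 0.27. Without HBG 1, Col15a1 was at -0.22. Without Control 4, Model 2 and HBG 3, the values were 0.11, -0.080 and -0.14 for Col6a1, Col6a2 and Col6a3, 0.44, 0.13 and -0.015 for Col12a1, Col14a1 and Col16a1, and 0.060, 0.19 and -0.26 for Col18a1, Col15a1 and Col8a1. An increase of collagen VI over Control in HBG was therefore not detectable with these libraries, and the 95% interval of Col6a1, from -0.03 to 0.63, includes both no difference and one as large as that between Model and Control.

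How the 9 genes varied together was described with Pearson correlations of log2 CPM over the 12 libraries, without a test, since the libraries share their group differences. The correlations among the 9 genes are therefore given also within groups, after removing each group's mean. The 3 collagen VI chains moved together: r was 0.93 for Col6a1 and Col6a2, 0.88 for Col6a1 and Col6a3 and 0.95 for Col6a2 and Col6a3, and 0.93, 0.92 and 0.93 within groups. Col18a1 and Col14a1 moved with them. For Col18a1, r was 0.91, 0.86 and 0.82 with Col6a1, Col6a2 and Col6a3 (0.87, 0.79 and 0.77 within groups). For Col14a1 it was 0.78, 0.85 and 0.83 (0.78, 0.89 and 0.88 within groups). Col12a1 had 0.82 with Col6a1 and 0.84 with Col14a1 (0.68 and 0.81 within groups). Col8a1 did not move with the collagen VI chains: its r was 0.28 with Col6a1, 0.12 with Col6a2 and 0.16 with Col6a3, and -0.04, -0.33 and -0.25 within groups. Its highest value was 0.59, with Col16a1.

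Over the 12 libraries, with the group differences left in, all 15910 other genes with a mean of at least 1 CPM were then ranked by their correlation with the mean of the 3 collagen VI chains. The nearest were Nrp2, a receptor for semaphorins and VEGF, with an r of 0.97, Rrbp1, a ribosome-binding protein of the endoplasmic reticulum (0.95), the microfibril protein Fbn1 (0.95), the adhesion molecule Sdk1 (0.94) and the hypoxia factor Hif1a (0.94). With the other members included, Col18a1 had rank 61, Col14a1 rank 193 and Col12a1 rank 299 of 15919. Col16a1 and Col15a1 had ranks 2389 and 2447, and Col8a1 rank 6137. The gene nearest to Col8a1 was P3h1, a collagen prolyl hydroxylase (0.96), that nearest to Col12a1 was Dag1, dystroglycan (0.97), and that nearest to Col14a1 was the kinase gene Rps6ka3 (0.97). For Col15a1 it was the ubiquitin-conjugating enzyme Ube2e2 (0.91), for Col16a1 the lysosomal nuclease Dnase2a (0.93) and for Col18a1 Sdk1 (0.92).

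The same libraries were often at the ends of their groups. Model 1 was the highest of its group for 6 of the 9 genes and Model 2 for the other 3, Col6a2, Col6a3 and Col14a1. Model 4 was the lowest for 6, the 3 collagen VI chains and the 3 FACITs. In HBG, HBG 3 was the highest for 7 genes and the lowest for Col8a1, and HBG 4 was the lowest for those same 7 genes. In Control no library was the highest for more than 3.

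**Figure D3:**
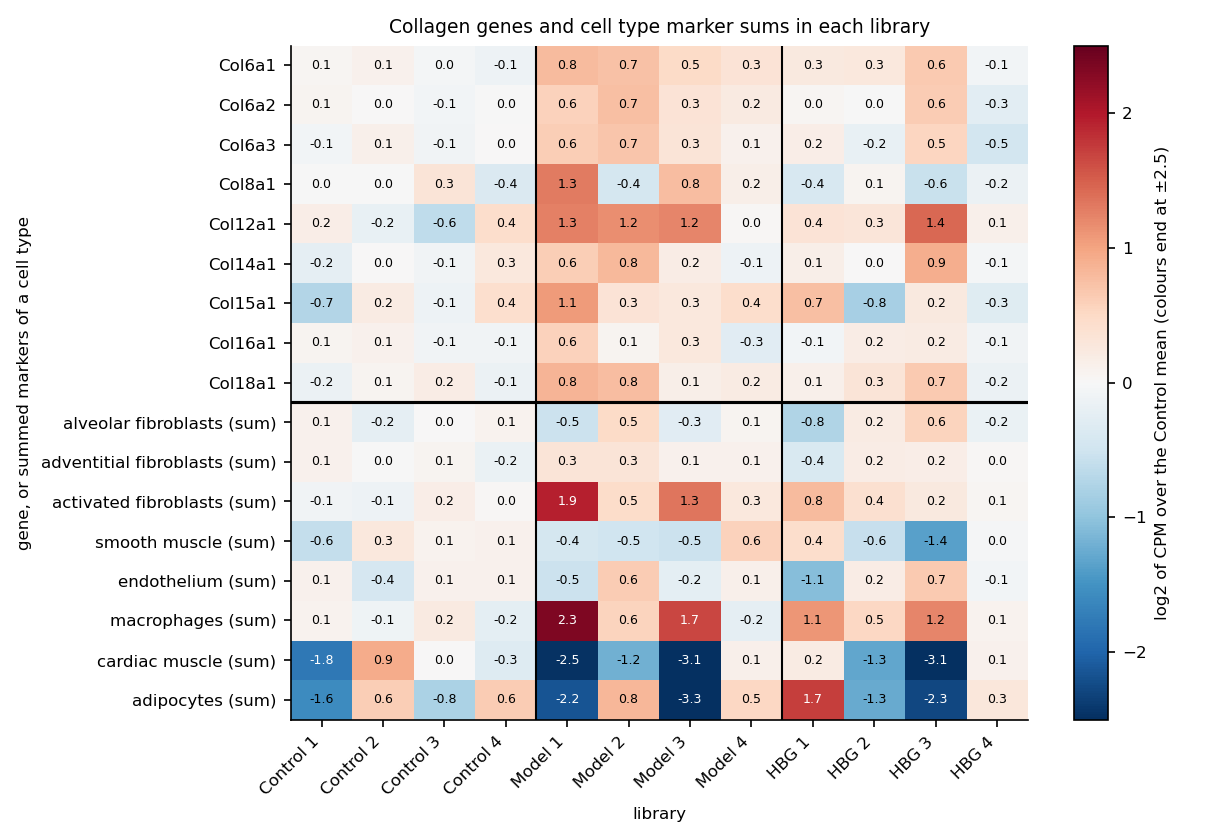
Log2 of the level in each library over the Control mean, for the 9 collagen genes (upper rows, CPM) and for the summed CPM of marker genes of 8 cell types (lower rows), in the 12 libraries (columns); colours end at 2.5 in either direction. Model 1, Model 2 and HBG 3 are high in the collagen VI rows; Model 2 and HBG 3 are also high in the alveolar fibroblast and endothelial rows and low in Col8a1, and Model 1, Model 3 and HBG 3 are the highest in the macrophage row.

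Markers of cell types varied among the same libraries. Summed markers of alveolar fibroblasts (Tcf21, Npnt, Pdgfra and 6 others) were 2722 to 3421 CPM (Control), 2205 to 4468 CPM (Model) and 1884 to 4707 CPM (HBG), with the highest values in Model 2 and HBG 3. Those of endothelium (Pecam1, Cdh5 and 7 others) ranged from 2157 to 3117, 1975 to 4444 and 1373 to 4519 CPM, with the same libraries on top. Both lists had 5 of 9 genes with a higher mean in Model. Markers of activated fibroblasts had 7 of 8 tested genes higher in Model, and their sums were 552 to 681 CPM (Control), 725 to 2321 CPM (Model) and 629 to 1056 CPM (HBG). Much of that sum in Model 1 was Spp1, at 1655 CPM, which is also a macrophage gene. Of the other markers, Tnc, Cthrc1, Aspn, Grem1 and Lrrc15 were also above every Control library in Model 1, with Tnc at 148 CPM against 20.4 to 38.4. Postn, Fap and Runx1 lay inside their Control ranges in Model 1. Postn was at 342 CPM against 327 to 383, Fap at 1.55 against 1.46 to 2.18 and Runx1 at 96.4 against 69.5 to 99.2. Model 2 differed from Model 1. There Cthrc1 (3.03 CPM) and Aspn (18.4 CPM) were below every Control library. Spp1 (255 CPM), Tnc (39.0 CPM) and Postn (436 CPM) were above, and the other markers of this list lay inside the Control range.

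Macrophage markers (Cd68, Gpnmb, Trem2 and 7 others) had 9 of 10 genes higher in Model, with sums of 569 to 779.6 CPM (Control), 575 to 3392 CPM (Model) and 715 to 1566.5 CPM (HBG). Model 4, the lowest Model library for 6 members, was at the low end of that range. Model 2, the highest for Col6a2, Col6a3 and Col14a1, was at only 987 CPM, below Model 3 (2146 CPM) and Model 1 (3392 CPM). Cardiac muscle markers (Myh6, Tnnt2, Nppa and 7 others), which can come from heart or pulmonary vein tissue, were lower in Model for 10 of 10 genes, with sums from 833 to 5514, 346 to 3177 and 334 to 3341 CPM. Adipocyte markers had 4 of 7 tested genes higher in Model and 7 of 7 higher in HBG than in Model, with sums from 60.2 to 279, 18.8 to 319.6 and 37.0 to 599 CPM. The highest was HBG 1, the only library with more than 1 CPM of Ucp1, at 13.7. Cartilage markers were low, with a sum of 2.98 to 9.75 CPM over the 10 genes. Acan had 0 counts in 4 libraries and Col2a1 reached at most 0.980 CPM, while Col11a2 was at 1.70 to 3.33 CPM in every library.

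The remaining lists covered adventitial fibroblasts (8 of 9 genes higher in Model, sums from 754 to 913, 908 to 1062 and 647 to 958 CPM in Control, Model and HBG) and pericytes (4 of 7, sums from 319 to 375, 371 to 418 and 246 to 419). Smooth muscle had 1 of 8 higher and sums from 1388 to 2511, 1444 to 3136 and 820.0 to 2852 CPM, and mesothelium 4 of 7 and sums from 242 to 438, 285 to 436 and 251 to 598 CPM. Lung epithelium had 4 of 8 and sums from 63582 to 86192, 38168 to 57810 and 32674 to 72562 CPM, and skeletal muscle 1 of 4 tested and sums from 23.8 to 112, 11.3 to 71.6 and 6.76 to 63.3 CPM. No gene of any cell type list passed the edgeR test in any comparison. The part of these cell type differences in the collagen values was not tested.

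The ratio of 2 genes within a library does not depend on how the library was scaled. The chains of collagen VI are built into the protein in equal numbers, and their per-length RNA levels were compared first. The ratio of Col6a2 to Col6a1 was 0.798, 0.745, 0.778 and 0.862 in Control, 0.680, 0.795, 0.720 and 0.735 in Model, and 0.689, 0.653, 0.787 and 0.694 in HBG. Control 4, Model 2 and HBG 3, the libraries with low Cdkn1a, were the highest of their groups. The geometric means were 0.795, 0.732 and 0.704, and the ratio did not pass in Model against Control (exact two-sided permutation p = 0.114, adjusted p = 0.343) or in HBG against Control (exact p = 0.0857, adjusted p = 0.343). With 4 libraries against 4 the smallest p possible is 0.0286, and p-values were adjusted over 12 comparisons, 4 ratios in 3 pairs of groups.

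The ratio of Col6a3 to Col6a1 had geometric means of 0.244, 0.219 and 0.204 in Control, Model and HBG. Control 1, at 0.224, fell among the Model libraries (0.208 to 0.235), and the other Control libraries, Control 3 by little, were above them. This gave the smallest p of the 12 (exact two-sided permutation p = 0.0571, adjusted p = 0.343 in Model against Control). The ratio of Col12a1 to Col14a1, the FACIT pair with like domains, was 0.516 in Control, 0.776 in Model and 0.657 in HBG, and was spread widely in Control, from 0.365 to 0.697 (exact p = 0.143, adjusted p = 0.343 for Model against Control). That of Col15a1 to Col18a1 was 0.444, 0.474 and 0.382 (exact p = 0.800, adjusted p = 0.800). None of the 12 comparisons passed, and all groups overlapped.

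**Figure D4:**
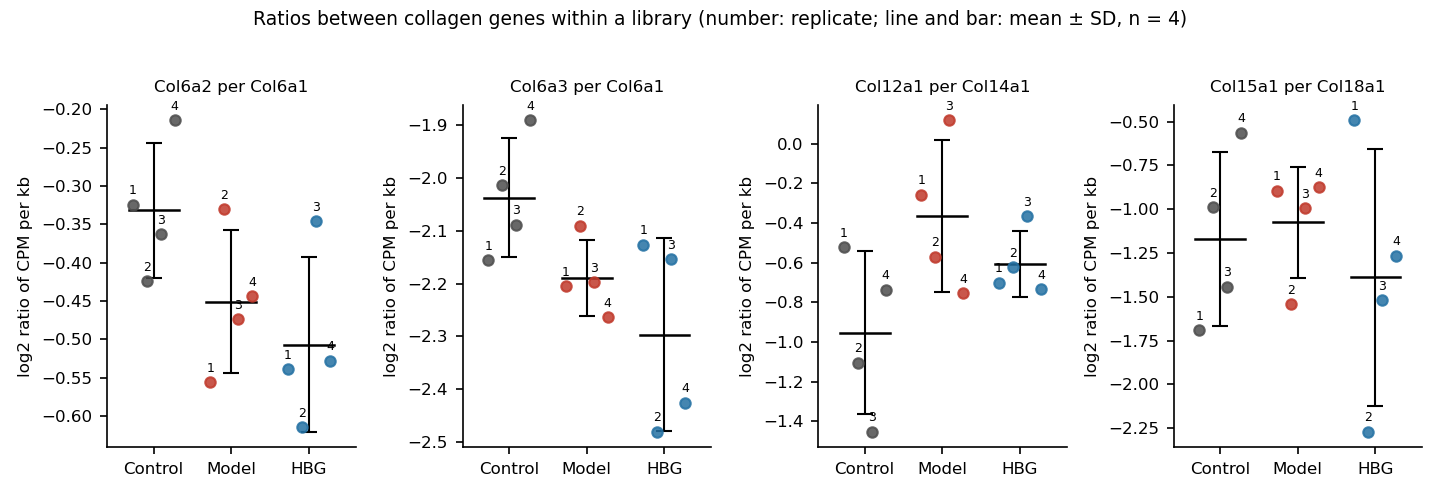
Log2 ratio of per-length levels of 4 gene pairs within each library (vertical axes, scaled to each pair; points, with the replicate number), with the mean and SD of each group. The groups overlap in each panel; for Col6a2 per Col6a1, Control 4, Model 2 and HBG 3 are the highest of their groups.

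Other genes of collagen biology were set beside the 9. From each list, here and below, the 2 genes named are those of smallest edgeR p in Model against Control. Their differences in that comparison are therefore partly set by the choice and do not stand for the list. Of the fibrillar collagens, which form the thick fibers, 9 of 11 had a higher mean in Model than in Control, with a median of 1.54-fold, and 10 of 11 a lower mean in HBG than in Model, with a median of 0.687-fold. Col1a1 was at 247 ± 25.2 CPM in Control, 409 ± 159 in Model and 244 ± 70.5 in HBG, and Col5a3, a minor fibril chain, at 5.01 ± 1.199, 9.21 ± 2.87 and 5.56 ± 1.77 CPM (SD, n = 4). Both had Model libraries wholly above Control, in the comparison by which they were chosen. Of the network and anchoring collagens, 6 of 9 had a higher mean in Model (median 1.45-fold) and 6 of 9 a lower mean in HBG than in Model (0.892-fold). Col4a1, of the basement membrane, was at 498 ± 48.7, 929 ± 203 and 669 ± 220 CPM and its partner chain Col4a2 at 463 ± 51.2, 756 ± 126 and 563 ± 162.

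The other FACIT, transmembrane and minor collagen VI genes differed less, with 12 of 15 tested and 7 of those 12 higher in Model (median 1.10-fold), and 7 of 12 higher in HBG than in Model (1.03-fold). Col28a1, a collagen of the von Willebrand domain family, was at 3.52 ± 1.47, 10.7 ± 8.99 and 3.49 ± 0.609 CPM. Col17a1, the hemidesmosome collagen of epithelium, was at 4.87 ± 0.858, 3.48 ± 2.06 and 6.48 ± 1.41 CPM. Of the collagen receptors and collagen VI partners, 15 of 16 had a higher mean in Model (1.14-fold) and 13 of 16 a lower mean in HBG than in Model (0.943-fold). Biglycan (Bgn), a proteoglycan that binds collagen VI, was at 567 ± 55.8, 856 ± 102 and 623 ± 218 CPM, and Fbn1 at 87.0 ± 6.56, 140.3 ± 44.2 and 97.1 ± 44.3.

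Enzymes that modify and fold collagen chains had 12 of 17 higher means in Model (1.10-fold) and 14 of 17 lower means in HBG than in Model (0.862-fold). The lysyl hydroxylase Plod3 was at 55.0 ± 7.28, 68.6 ± 6.77 and 59.1 ± 6.56 CPM, and the chaperone Fkbp10 at 26.9 ± 3.45, 33.9 ± 5.34 and 26.1 ± 1.35. Processing and cleavage genes had 13 of 14 higher (1.40-fold) and 11 of 14 lower (0.787-fold). The lysosomal proteases Ctss and Ctsl were at 95.1 ± 18.5, 360 ± 216 and 238 ± 110 CPM and at 189 ± 8.35, 256 ± 60.9 and 216 ± 24.1 CPM. Crosslinking genes had 6 of 6 higher (1.40-fold) and 6 of 6 lower (0.717-fold), with lysyl oxidase (Lox) at 59.5 ± 2.604, 93.3 ± 22.1 and 63.6 ± 16.1 CPM and the transglutaminase Tgm2 at 292 ± 9.29, 394 ± 60.6 and 359 ± 57.7.

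Genes of TGF-beta signalling, which drives matrix genes in fibroblasts, had 13 of 15 higher means in Model (1.18-fold) and 14 of 15 lower means in HBG than in Model (0.841-fold). The receptor Tgfbr2 was at 253 ± 6.99, 375 ± 55.1 and 339 ± 65.6 CPM and the induced matrix protein Tgfbi at 69.5 ± 4.85, 115 ± 34.6 and 92.4 ± 17.4 CPM. In HBG against Control the medians of the 8 lists lay between 0.967-fold and 1.22-fold. No gene of these 8 lists passed the edgeR test in any of the 3 comparisons, and no list was tested as a set. The medians of the 9 collagens, 1.44-fold in Model and 0.792-fold in HBG against Model, thus lay within the range of these lists.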

How the data were processed

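Gene-level estimated counts of 12 lung libraries were deposited by the authors as a single table. The unit, which the header leaves out, was inferred: each library holds 10.0% to 15.1% of values that are not whole. The aligners STAR 2.7.9a and HISAT2, the counters featureCounts 2.0.1 and HTSeq, and the builds GRCm39 and mm10 are named among others, per the submitters' processing notes, without roles; the tool and annotation behind the counts are not given in the sources used here. Per the labels' protocols, the kit was stranded and selected polyadenylated RNA. Reads carry no molecular identifiers, so the floor of 3 counts (0.117 to 0.166 CPM) covers counting error only.

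Groups and replicate numbers came from the titles. No 2 libraries of a group agreed within sampling noise. Counts were rounded and tested with edgeR 4.0.16 (R 4.3.3, limma 3.58.1, the data.table package in version 1.17.8): TMM factors, filterByExpr (17827 genes kept), quasi-likelihood F test with group as the only term in all 12 libraries, Benjamini-Hochberg adjustment over all genes tested, threshold 0.05. CPM use the TMM factors and the counts of tested genes. Lengths and Pfam names are those of the deposited table; each length equals that of a GENCODE M21 transcript of the gene. Standard errors derive from the F statistic. Ratios were compared by exact permutation. The fit was tested on simulated counts.

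The members and gene lists were chosen with earlier results of these data known. Named were the 9 members, from each of 8 pathway lists the 2 genes of smallest edgeR p in Model against Control, the 5 genes most correlated with the collagen VI mean (log2 CPM, prior count 2) and the nearest gene of each other member; of 13 cell type lists only defining markers were named. Alternatives were RLE factors, DESeq2 1.42.0, weighted limma-voom, other filters, the 2 groups compared only, offsets for GC content and length, a replicate block, and libraries left out.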

Additional observations from a re-analysis of the deposited data

Results flagged for a closer look

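In 3 of 39 groups of 4 libraries (27 of gene levels and 12 of ratios), the end library lay farther from the other 3 than Dixon's critical value at 95% allows; chance gives about 1 in 20 groups. Col12a1 was at 30.3 CPM in Model 4, below the other Model libraries at 66.2 to 71.3 CPM. Col12a1 was at 80.8 CPM in HBG 3, against 32.3 to 37.8 CPM in the other HBG libraries. Col14a1 was at 58.3 CPM in HBG 3, against 30.1 to 34.5 CPM in the others. HBG 3 is 1 of the 3 libraries with low Cdkn1a, and Model 4 is not.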

How the results depend on the processing

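The 9 log2 fold changes of Model against Control stayed above 0 under every alternative run, and those of HBG against Model below 0 except for Col16a1 without Model 1 (0.037, lowest -0.25 without Model 4) and Col14a1 without Model 2 (0.048, lowest -0.38 without HBG 3). Genes called by edgeR in Model against Control numbered 62, with 444 by DESeq2, 1079 by limma-voom with weights and 23 to 67 with 1 library left out (0 members each time by edgeR); members called were 1 by DESeq2 and 3 by limma-voom. In HBG against Control the counts were 27, 205, 101 and 16 to 25, and in HBG against Model 0, 4, 0 and 0. Numbers shared by libraries of different groups were not treated as pairs in the main fit. The correlation of deviations between libraries of the same number ran from -0.357 to 0.481. Some libraries, but not all, correlated best with their own number, and whether a number marks a shared origin was not tested. With the replicate block, 25 and 17 genes were called in Model against Control and HBG against Control, 38 in Model against Control with the block and GC and length offsets, and no member.

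In HBG against Control several small log2 fold changes turned below 0. With limma-voom and weights these were Col6a2 (-0.083), Col6a3 (-0.20) and Col15a1 (-0.17). Col6a3 was at -0.040 with GC and length offsets and -0.069 with the replicate block added, where Col15a1 was at -0.066; with the replicate block alone Col15a1 was at -0.011. With 1 library left out, Col6a2 ran from -0.070 (without HBG 3) to 0.25 and Col6a3 from -0.13 (without HBG 3) to 0.20, both highest without HBG 4; Col15a1 ran from -0.22 without HBG 1, by -0.11 without Control 1, to 0.29 without HBG 2. Without Control 4, Model 2 and HBG 3 together, chosen after seeing the data, Col6a2 was at -0.080, Col6a3 at -0.14 and Col16a1 at -0.015. The log2 ratio of Col15a1 to Col18a1 differed by 0.095 in Model against Control, from -0.078 without Control 1 to 0.30 without Control 4, and by 0.45 without Control 4, Model 2 and HBG 3; in HBG against Control it differed by -0.22, from -0.51 without HBG 1 to 0.078 without HBG 2, and by 0.031 without the 3 libraries. The cause of these changes was not tested. The 4 libraries of a group limit what can be called: the 95% interval of Col12a1 in Model against Control ran from 0.24 to 1.76.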
